A study of Caenorhabditis elegans with 15 samples.

Results

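The vacuolar-type proton pump (V-ATPase) and the autophagy machinery were examined in whole-animal mRNA profiles of *Caenorhabditis elegans*. Members were taken by WormBase public name, that is all *vha* genes, all *atg* and *epg* genes with a number, and *unc-32*, *unc-51*, *bec-1*, *lgg-1*, *lgg-2*, *sqst-1* and *vps-34*. This gave 47 of the 20483 genes in the data, 21 of the V-ATPase and 26 of autophagy. Of these, 46 reached the level needed for a test, and *atg-10* did not. The members were chosen with earlier results of these data known.

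Libraries came from 3 strains with 5 libraries each, which the study calls biological replicates. The *age-1; gas-1* strain (double mutants) carries *age-1(hx546)* and *gas-1(fc21)*, the *gas-1* mutants carry *gas-1(fc21)* alone, and wild-type nematodes (wt) are N2. GAS-1 is a subunit of complex I of the respiratory chain, and AGE-1 is the catalytic part of the lipid kinase that acts in insulin/IGF signaling (IIS). Both alleles are carried in all cells of the animal, and *age-1(hx546)* on its own was not analysed here. All strains were grown at 20 °C on OP50 bacteria after synchronization with hypochlorite, and the labels give the stage as L4, the last larval stage. The study's sequencing methods refer to an RNA extraction that it describes for young adults. The comparison of double mutants with *gas-1* mutants asks what reduced IIS does in animals with defective complex I, and the comparison of *gas-1* with wt asks what the complex I defect does.

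The V-ATPase pumps protons into lysosomes, endosomes and secretory compartments and across some plasma membranes. Its cytosolic V1 sector hydrolyses ATP and turns a rotor that drives protons through the membrane-embedded V0 sector. In autophagy, a kinase complex and a lipid kinase complex start a membrane sac, ATG-2 and ATG-9 supply its lipids, conjugation enzymes attach Atg8-family proteins to it, and the closed autophagosome fuses with the lysosome, where acid made by the V-ATPase allows digestion. In *C. elegans* the intestine, excretory canal and hypodermis are rich in V-ATPase, and its subunits are often encoded by several genes used in different tissues.

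Levels are given as FPKM (fragments for each kilobase of a transcript, divided by depth), and differences as limma fits of log2(FPKM + 0.1), with a call at a 5% false discovery rate over all 11648 genes tested. The read totals are not known, because the tables hold FPKM only, which summed to between 658126 and 702623 per library. Transcripts of *gas-1* averaged 221 ± 13.3 FPKM in double mutants, 219.5 ± 19.4 in *gas-1* mutants and 115.0 ± 11.04 in wt (SD, n = 5 each). Those of *age-1* averaged 3.88 ± 0.136, 3.79 ± 0.394 and 4.53 ± 0.392 FPKM in the same order of strains. Both alleles are point mutations, so these levels do not check the labels. The 6 oocyte and germline markers summed to 2454 to 2886 FPKM in double mutants, 2999 to 3787 in *gas-1* mutants and 4008 to 4809 in wt, and so were abundant in animals labelled L4. In whole animals, fewer cells of a type and less RNA per cell cannot be told apart. The 11 sperm markers summed to 6.02 to 39.1 FPKM, 8.03 to 27.7 FPKM and 3.81 to 89.0 FPKM in double mutants, *gas-1* mutants and wt. Replicates 2 and 5 of the double mutants, replicate 2 of *gas-1* and replicate 3 of wt were low in sperm RNA, and counts of members are also given without these 4 libraries.

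Most V-ATPase genes had their highest level in *gas-1* mutants, above wt and above the double mutants. Of the 21 members, 12 fell and 0 rose in double mutants relative to *gas-1* mutants (limma), where 19.5% of all genes tested fell and 13.5% rose. At an unadjusted p under 0.05, 16 were lower and 0 higher. In *gas-1* mutants relative to wt 18 rose and 2 fell, where 44.0% of all genes rose and 24.6% fell. In double mutants relative to wt 6 rose and 2 fell, against 44.5% and 31.2% of all genes. The median log2 fold change of the members was -0.14, beside -0.02 for all genes, in double mutants relative to *gas-1* mutants. It was 0.24, beside 0.14, in *gas-1* mutants relative to wt, and 0.09, beside 0.14, in double mutants relative to wt. Each pair of comparisons shares the libraries of 1 strain, so their calls are not independent.

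Scaling of the libraries mattered for the comparisons with wt. The median of all genes in *gas-1* mutants relative to wt was 0.14 as deposited, 0.11 after upper-quartile scaling, 0.01 after median-of-ratios scaling, -0.08 after quantile normalization and -0.10 when the median of ratios was taken over every gene above 0 in all libraries. Set against that median, the V-ATPase members were 0.11 higher as deposited and 0.10 to 0.34 higher under the 4 other scalings. The call count did depend on it, with 12, 17, 17 and 5 members higher under the median-of-ratios, upper-quartile, quantile and all-gene median-of-ratios scalings, and 2, 2, 2 and 3 lower. Of all 11648 genes tested, 4245, 4933, 3057 and 3414 were then higher, and 4038, 3302, 4423 and 4631 lower. For double mutants relative to wt the median of all genes was 0.14 as deposited and 0.02, 0.14, -0.12 and -0.14 under these 4 scalings, and the members' median turned negative under both median-of-ratios scalings, at -0.02 and -0.19. The splits there were 4 higher and 4 lower, 7 and 2, 10 and 2, and 2 and 15 under the same 4 scalings. Those of all genes were 4577 and 4344, 5257 and 3690, 3359 and 4999, and 3713 and 5011. In double mutants relative to *gas-1* mutants the split stayed at 0 higher and 11, 11, 11 and 14 lower, and the members lay 0.07 to 0.13 below the median of all genes. Of all genes 1641, 1905, 1572 and 1299 were higher there, and 1985, 1887, 2639 and 2102 lower.

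**Figure D1:**
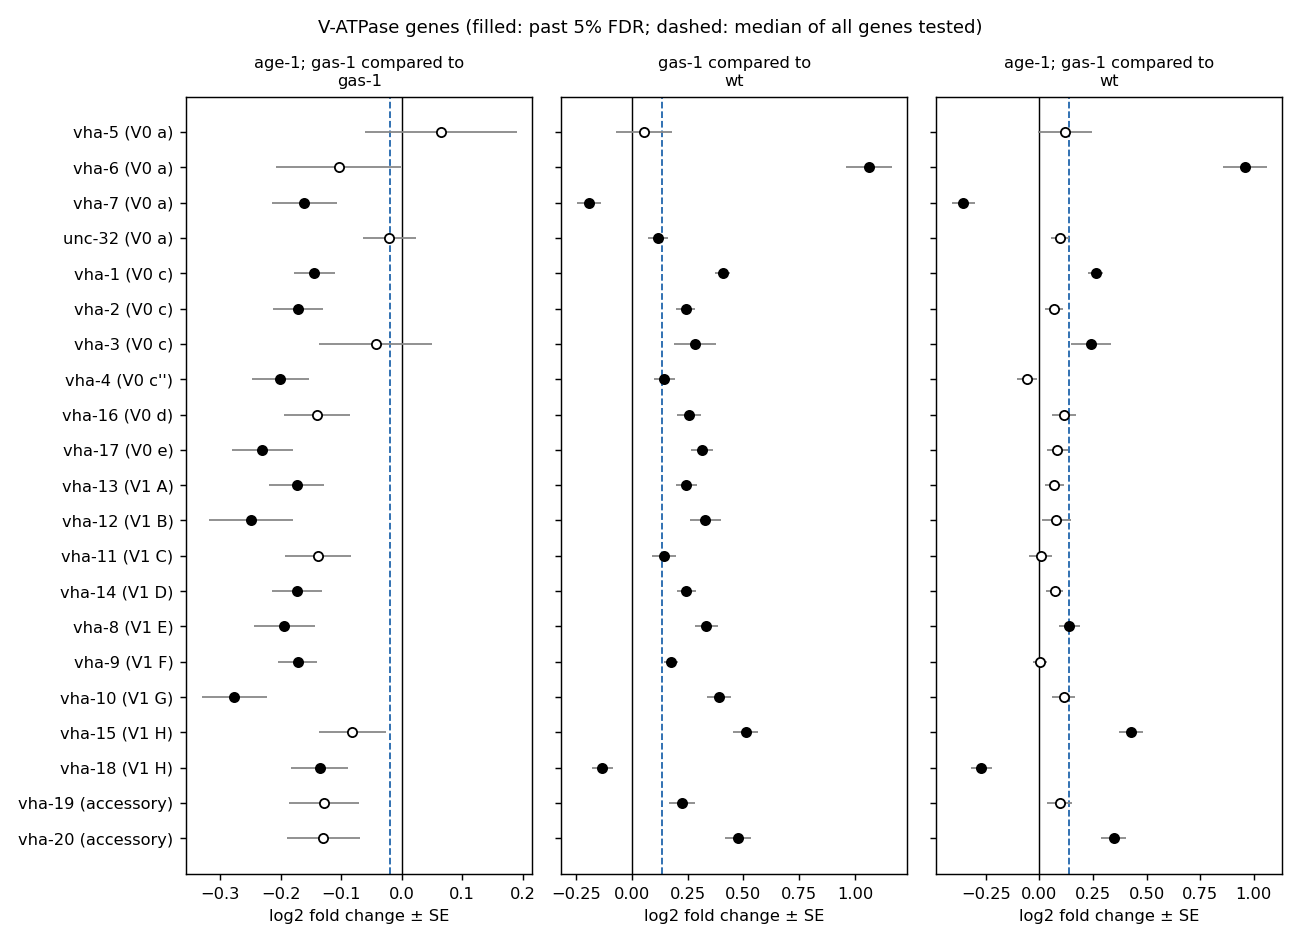
Log2 fold change (x axis) of each of the 21 V-ATPase genes (y axis, with its subunit) in the 3 comparisons, with bars for the SE of the fit, filled points for calls at 5% FDR and a dashed line at the median of all genes tested. In the left panel only *vha-5* lies above the dashed line, and in the middle panel *vha-6* stands far to the right while *vha-7* and *vha-18* lie to the left of 0.

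The plot of V-ATPase fold changes gives the subunits side by side. By means, 17 of the 21 genes were ordered *gas-1* highest, then double mutants, then wt. The share of all genes in this order was not counted. Joint calls divided the 21 genes further. Higher in *gas-1* mutants than in wt, lower in double mutants than in *gas-1* mutants and not called between double mutants and wt were 8 genes, *vha-2*, *vha-4*, *vha-9*, *vha-10*, *vha-12*, *vha-13*, *vha-14* and *vha-17*. For *vha-1* and *vha-8* the same held, but double mutants still lay above wt. Above wt in both mutants, with no call between the mutants, were 4 genes, *vha-3*, *vha-6*, *vha-15* and *vha-20*. Called in *gas-1* mutants relative to wt and in neither other comparison were *unc-32*, *vha-11*, *vha-16* and *vha-19*. Both *vha-7* and *vha-18* were lower in each of the 3 comparisons, and *vha-5* was called in none.

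Between the mutants, where 19.5% of all genes tested fell, the V1 sector carried 7 of the 12 lower calls, among its 9 genes. The largest was that of *vha-10*, the G subunit of the peripheral stalk (chromosome I, 5609341 to 5610270, WBcel235). Its libraries held 62.3, 54.1, 63.2, 60.4 and 55.5 FPKM in double mutants, 71.4, 70.0, 71.2, 71.3 and 73.5 in *gas-1* mutants and 55.9, 60.4, 49.2, 53.3 and 54.4 in wt. Every *gas-1* library exceeded every library of both other strains, and those 2 strains overlapped. The log2 fold change was -0.28 in double mutants relative to *gas-1* mutants (SE 0.054, limma adjusted p = 0.0014), and 0.39 in *gas-1* mutants relative to wt (limma adjusted p = 2.2e-05).

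The B subunit *vha-12*, part of the ring that binds and hydrolyses ATP (X, 4191094 to 4193144), had 171, 132, 165, 174 and 158 FPKM in double mutants, 201, 181, 185, 193 and 188 in *gas-1* mutants and 149.6, 157, 142, 141 and 165 in wt. Again the *gas-1* libraries were the highest 5 of the 15. The fold changes were -0.25 between the mutants (SE 0.069, limma adjusted p = 0.013) and 0.33 in *gas-1* mutants relative to wt (limma adjusted p = 0.00076), the second of which was 0.09 with the all-gene median of ratios (limma adjusted p = 0.22). Its partner in the ring, the A subunit *vha-13*, was the most abundant V-ATPase transcript in wt, at 269 ± 15.6 FPKM in double mutants, 303 ± 8.85 in *gas-1* mutants and 256 ± 13.96 in wt (SD, n = 5 each). Fold changes of the rotor and stalk genes *vha-8* (E), *vha-9* (F) and *vha-14* (D) lay between -0.19 and -0.17 between the mutants and between 0.17 and 0.33 in *gas-1* mutants relative to wt. The C subunit *vha-11*, which regulates attachment of V1 to V0, was not called between the mutants (log2 fold change -0.14, limma adjusted p = 0.067).

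The H subunit, which also governs the coupling of the sectors, is encoded by 2 genes with opposite calls against wt. For *vha-15* (X, 2237911 to 2240255) the values were 176, 167, 178, 173 and 163 FPKM in double mutants, 187, 168, 188, 178 and 186 in *gas-1* mutants and 125, 146, 120.5, 115 and 132 in wt. All 10 mutant libraries lay above all wt libraries, and the mutants overlapped each other. It rose by 0.51 in *gas-1* mutants relative to wt (SE 0.056, limma adjusted p = 2.3e-06, ratio of means 1.42) and by 0.43 in double mutants relative to wt (limma adjusted p = 7.0e-06). Transcripts of *vha-18*, its paralog, averaged 37.1 ± 1.02 FPKM in double mutants, 40.8 ± 3.03 in *gas-1* mutants and 44.7 ± 1.37 in wt, and were lower in each comparison (log2 fold change -0.14, -0.13 and -0.27). The ratio of *vha-15* to *vha-18* in a library was 4.62 ± 0.0578 in double mutants, 4.47 ± 0.493 in *gas-1* mutants and 2.86 ± 0.303 in wt, which is a description without a test.

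In the V0 sector 5 of 10 genes fell between the mutants (19.5% of all genes). In *gas-1* mutants relative to wt 8 rose and 1 fell (44.0% and 24.6% of all genes). The e subunit *vha-17* (IV, 9321801 to 9322525), a small membrane protein, had 34.2, 33.5, 37.3, 34.2 and 33.3 FPKM in double mutants, 40.1, 40.7, 39.4, 38.5 and 43.5 in *gas-1* mutants and 32.97, 35.8, 31.1, 30.1 and 32.8 in wt. No *gas-1* library reached down to either other strain. Its fold change was -0.23 between the mutants (SE 0.050, limma adjusted p = 0.0027) and 0.31 in *gas-1* mutants relative to wt (limma adjusted p = 7.2e-05), or 0.07 with the all-gene median of ratios (limma adjusted p = 0.17).

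The proteolipid ring that carries protons is built from c subunits, encoded by *vha-1*, *vha-2* and *vha-3*, and the related c'' subunit *vha-4*. Lower between the mutants were *vha-1* (-0.14), *vha-2* (-0.17) and *vha-4* (-0.20), while *vha-3* was not called (-0.04, limma adjusted p = 0.77). Against wt, *gas-1* mutants were higher in all 4, by 0.41, 0.24, 0.28 and 0.14 for *vha-1*, *vha-2*, *vha-3* and *vha-4*. The genes *vha-2* and *vha-3* encode nearly identical proteins, and how well reads can be divided between their transcripts was not checked. On chromosome III *vha-1* (9781254 to 9781763) and *vha-2* (9782164 to 9783224) lie 400 bp apart on 1 strand, and on chromosome IV *vha-11* (2307815 to 2314567) and *vha-3* (2315460 to 2315945) lie 892 bp apart on 1 strand.

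The a subunit of V0 anchors the pump in its membrane and decides where it works, and its 4 genes differed in their calls. The intestinal form *vha-6*, which is known for acidifying the gut lumen (II, 11435210 to 11438452), showed the largest change of any V-ATPase gene. Libraries of double mutants held 359.9, 347, 360.4, 365 and 329 FPKM, those of *gas-1* mutants 398, 336, 391, 364 and 406, and those of wt 226, 193, 136, 168 and 195. All mutant libraries lay above all wt libraries, and the 2 mutants overlapped. The log2 rise was 1.06 for *gas-1* mutants relative to wt (SE 0.10, limma adjusted p = 7.8e-07, ratio of means 2.06) and 0.96 in double mutants relative to wt (SE 0.10, limma adjusted p = 1.1e-06, ratio 1.92). Between the mutants the fold change was -0.10 (limma adjusted p = 0.48). The gene lies 80.9 kb from *age-1*, whose *hx546* allele is in the double mutants alone.

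Intestinal markers moved in part with *vha-6*. Of 6 intestinal markers 4 rose and 0 fell (limma) in *gas-1* mutants relative to wt (44.0% and 24.6% of all genes) and likewise in double mutants relative to wt (44.5% and 31.2%), and none was at 0. Not called against wt were *act-5* and *pept-1*. Between the mutants, where *vha-6* was not called, *ges-1* rose by 1.11, *vit-2* rose by 0.66 and *act-5* fell by 0.44. The 6 together, of which the yolk gene *vit-2* made up most, summed to 79973 to 99235 FPKM in double mutants, 48842 to 63631 in *gas-1* mutants and 27983 to 38413 in wt, without overlap. The list without *vit-2* summed to 395 to 524 FPKM in double mutants, 429 to 611 in *gas-1* mutants and 292 to 483 in wt, so the strains overlapped. The largest part of that sum was *act-5*, which averaged 260, 351 and 302 FPKM in the same order. Gene by gene, both mutants lay apart from wt for *ges-1*, *elt-2* and *vit-2*, as for *vha-6*. For *ifb-2* only *gas-1* mutants did, and *act-5* and *pept-1* overlapped wt in both mutants. The part of intestinal RNA content in the *vha-6* result was not tested.

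The neuronal form *unc-32* (III, 8905615 to 8911756) had 162, 168, 174, 163 and 154 FPKM in double mutants, 172, 157, 172, 168 and 164 in *gas-1* mutants and 152, 149.5, 167, 144 and 157 in wt. All 3 strains overlapped. The fold change of 0.12 in *gas-1* mutants relative to wt (SE 0.044, limma adjusted p = 0.027) lay under the median of all genes, turned to -0.0068 after median-of-ratios scaling, and lost its call without any of 6 single libraries (wt replicate 1, 2 or 4, *gas-1* replicate 1, 3 or 4, with fold changes of 0.09 to 0.11). All 5 neuronal markers tested rose in *gas-1* mutants and in double mutants relative to wt (44.0% and 44.5% of all genes), by a median of 0.53 and 0.60. The 6 listed, with *rab-3* untested, summed to 93.7 to 104.6 FPKM in double mutants, 90.2 to 97.6 in *gas-1* mutants and 73.1 to 79.5 in wt. The largest part was *snb-1*, which averaged 53.3, 53.3 and 47.0 FPKM in that order.

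For *vha-7*, a form known from the hypodermis (IV, 12640462 to 12650652) the direction was the opposite. It had 56.5, 55.5, 55.4, 50.4 and 52.1 FPKM in double mutants, 62.7, 63.1, 65.0, 58.6 and 52.8 in *gas-1* mutants and 66.8, 70.4, 71.6, 66.3 and 69.9 in wt. Every mutant library was below every wt library. It fell by 0.19 in *gas-1* mutants relative to wt (limma adjusted p = 0.0051) and by 0.36 in double mutants relative to wt (limma adjusted p = 2.9e-05). Between the mutants the fold change was -0.16 (SE 0.053, limma adjusted p = 0.032), a call near the cutoff. It was lost without *gas-1* replicate 1, 2 or 3 or double mutant replicate 4 or 5 (fold changes of -0.15 to -0.13, limma adjusted p = 0.071 to 0.084). Of 4 hypodermis markers, 3 rose and 0 fell in each mutant relative to wt, and *col-19* was not called. In *gas-1* mutants 44.0% of all genes rose, and in double mutants 44.5%. The 3 that rose, *dpy-7*, *bli-1* and *rol-6*, were low in wt, at means of 1.31, 0.275 and 0.377 FPKM. The 4 together summed to 610 to 917 FPKM in double mutants, 607 to 842 in *gas-1* mutants and 538 to 975 in wt. The strains overlapped in this sum, most of which was *col-19*. The part of hypodermal RNA content in the *vha-7* result was not tested.

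Of the 4 forms, *vha-5*, which acts in the excretory canal and hypodermis (IV, 8303968 to 8307371), was the least abundant. It had 30.3, 23.9, 34.6, 31.2 and 24.3 FPKM in double mutants, 29.6, 23.5, 28.4, 27.8 and 27.6 in *gas-1* mutants and 25.2, 32.97, 20.5, 25.4 and 28.9 in wt. All strains overlapped, and the fold changes of 0.06, 0.05 and 0.12 passed no test (limma adjusted p = 0.75, 0.71 and 0.40).

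**Figure D2:**
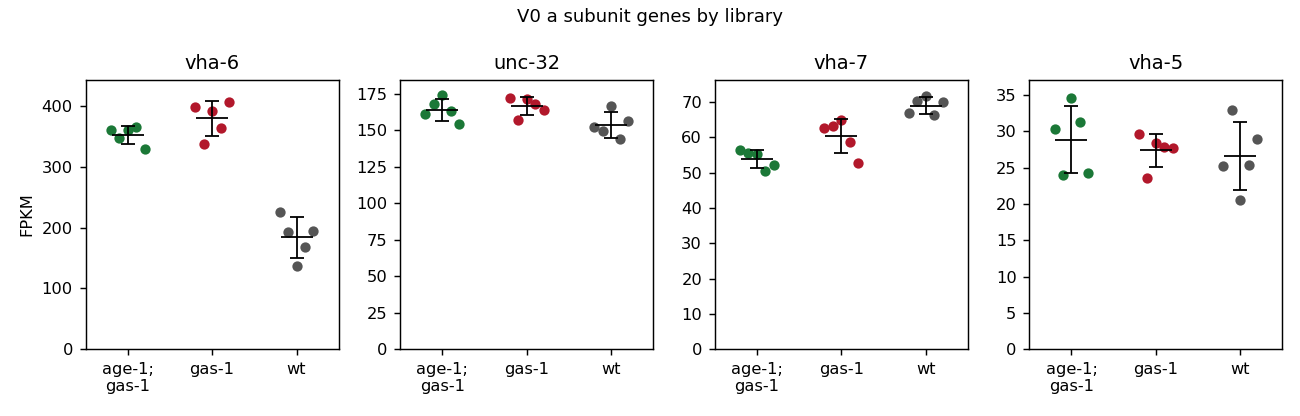
FPKM (y axis, from 0) of the 4 genes for the V0 a subunit in each library of double mutants, *gas-1* mutants and wt, with points for libraries and bars for the mean ± SD of 5. For *vha-6* both mutants sit between 329 and 406 FPKM, above the wt libraries at 136 to 226, for *vha-7* they sit below wt, and for *unc-32* and *vha-5* the strains overlap.

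The plot of the a subunit genes also gives the mix of a subunits in each strain. The intestinal *vha-6* made up 58.8 ± 0.812% of a subunit FPKM in double mutants, 59.8 ± 1.66% in *gas-1* mutants and 42.2 ± 4.92% in wt (SD, n = 5 each). The share of *unc-32* was 27.4 ± 0.733%, 26.3 ± 0.806% and 35.7 ± 3.85%, and that of *vha-7* 9.01 ± 0.463%, 9.57 ± 0.995% and 16.01 ± 1.43% in the same order. These shares compare levels per length and were not tested. Summed over genes, the V1 sector held 1112 ± 57.6 FPKM in double mutants, 1255 ± 30.4 in *gas-1* mutants and 1032 ± 56.6 in wt. The V0 sector held 1341 ± 62.3, 1465 ± 58.5 and 1140 ± 67.7 FPKM, or 989 ± 49.2, 1086 ± 30.5 and 956 ± 45.5 without *vha-6*. In ratio, V1 to V0 with *vha-6* included was 0.830 ± 0.0228 in double mutants, 0.858 ± 0.0231 in *gas-1* mutants and 0.906 ± 0.0197 in wt. This order of strains depends on *vha-6*. Without that gene, the mean sums above put wt lowest, not highest, in V1 relative to V0.

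The accessory subunits, which help the pump assemble and reach its membranes, both rose in *gas-1* mutants relative to wt. For *vha-20*, the homolog of the mammalian prorenin receptor (X, 14163099 to 14164506), libraries held 213, 194, 229, 209.8 and 191 FPKM in double mutants, 233, 218, 229.6, 218 and 234 in *gas-1* mutants and 159.7, 182, 154, 148 and 173 in wt. Mutant and wt libraries did not overlap, with a rise of 0.48 in *gas-1* mutants (SE 0.060, limma adjusted p = 9.2e-06) and 0.35 in double mutants (limma adjusted p = 0.00011), the second of which was 0.07 and lost its call with the all-gene median of ratios (limma adjusted p = 0.21). Its position is 1.42 Mb from *gas-1*, whose *fc21* allele both mutants carry. The homolog of mammalian Ac45, *vha-19*, averaged 46.1 ± 3.44, 50.4 ± 2.83 and 43.1 ± 2.45 FPKM in double mutants, *gas-1* mutants and wt, and rose by 0.22 in *gas-1* mutants relative to wt (limma adjusted p = 0.0034).

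Without the 4 libraries low in sperm RNA, an alternative chosen after seeing the data, 8 V-ATPase genes were lower and 0 higher in double mutants relative to *gas-1* mutants. Of all 11648 genes, 2155 were lower and 1620 higher there. In *gas-1* mutants relative to wt 18 V-ATPase genes were higher and 2 lower (5353 and 3249 of all genes). The largest move was in double mutants relative to wt, where 12 rather than 6 were higher (5303 of all genes). Among the genes described, *vha-7* then lost its call between the mutants (-0.14, limma adjusted p = 0.14), while *unc-32*, *vha-10* and *vha-12* gained one in double mutants relative to wt, at 0.15 each (limma adjusted p = 0.0077, 0.012 and 0.024).

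Few autophagy genes were called between the mutants. Of the 25 tested, 3 rose, 1 fell and 21 were not called in double mutants relative to *gas-1* mutants, beside 13.5% of all genes higher and 19.5% lower. In *gas-1* mutants relative to wt 10 rose and 3 fell (44.0% and 24.6% of all genes), and in double mutants relative to wt 13 rose and 4 fell (44.5% and 31.2%). The median log2 fold changes were 0.05, 0.17 and 0.21 in these comparisons, 0.07, 0.03 and 0.07 above the median of all genes. With quantile normalization and with the all-gene median of ratios the median for *gas-1* mutants relative to wt turned to -0.0028 and -0.07, with 5 higher and 5 lower, and 2 higher and 8 lower. Of all 11648 genes, 3057 were higher and 4423 lower under the first, and 3414 and 4631 under the second. By means, 13 genes were ordered double mutants highest, then *gas-1*, then wt, which was the order of 1 V-ATPase gene, *vha-5*. The share of all genes in that order was not counted.

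**Figure D3:**
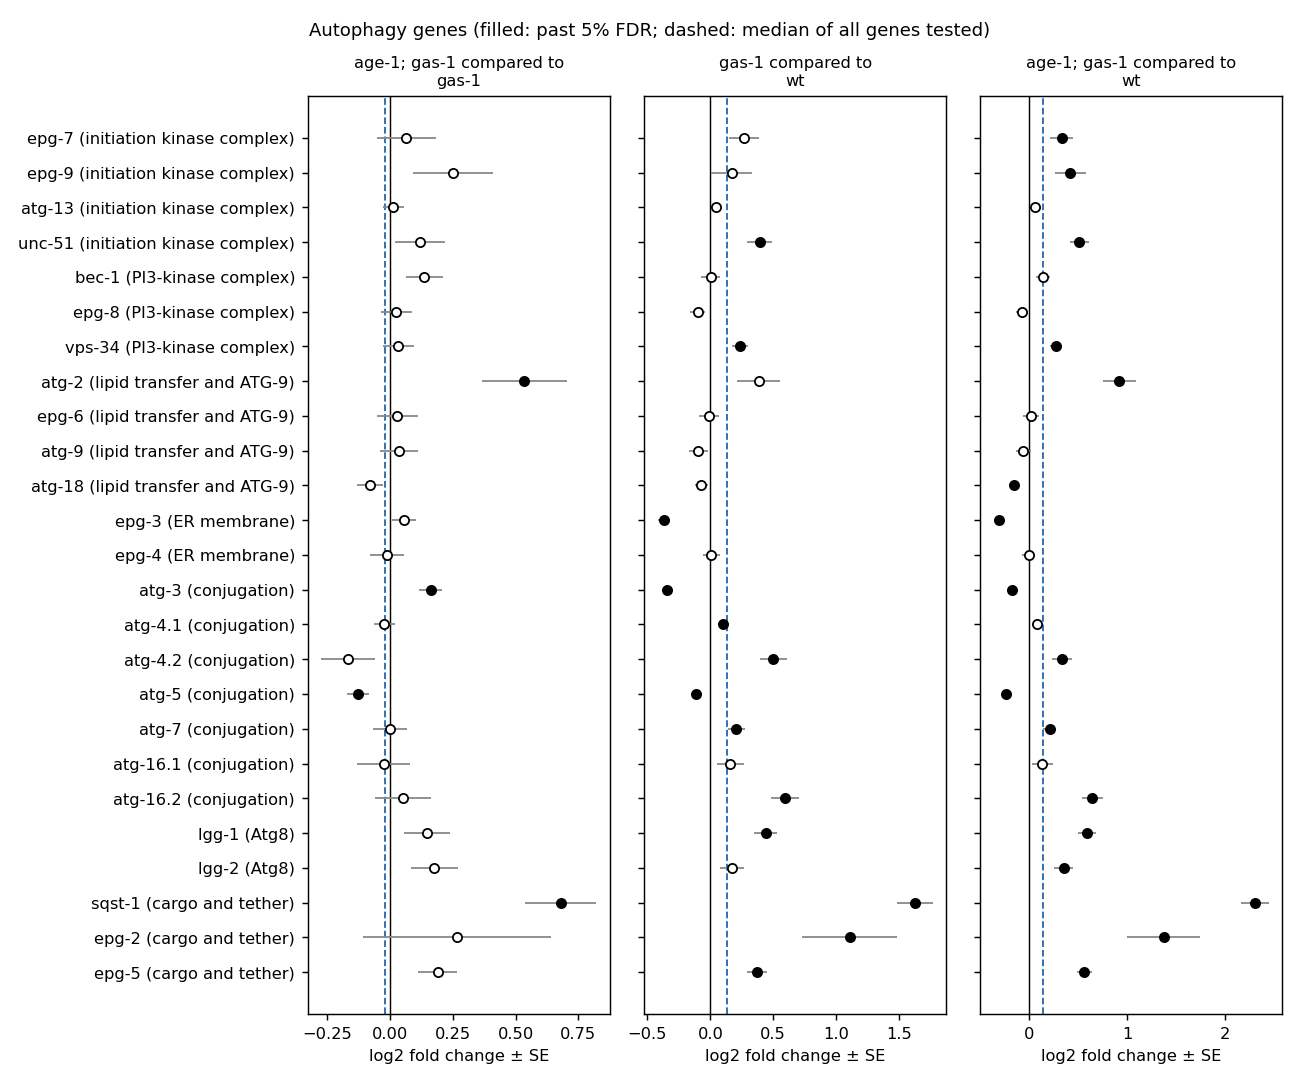
Log2 fold change (x axis) of the 25 autophagy genes tested (y axis, grouped by role) in the 3 comparisons, with bars for the SE of the fit, filled points for calls at 5% FDR and a dashed line at the median of all genes tested. In all panels *sqst-1* lies farthest to the right, and in the left panel only *sqst-1*, *atg-2*, *atg-3* and *atg-5* are filled.

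The largest change belonged to *sqst-1*, the homolog of mammalian p62, an adaptor that brings ubiquitinated cargo to the autophagosome and is itself degraded there (IV, 12034282 to 12036891). It had 45.1, 63.6, 57.4, 51.4 and 57.7 FPKM in double mutants, 33.4, 31.1, 32.5, 30.7 and 44.7 in *gas-1* mutants and 12.3, 9.65, 13.7, 8.16 and 12.03 in wt. The 3 strains did not overlap, although the highest *gas-1* library, at 44.7 FPKM, lay just under the lowest double mutant library, at 45.1 FPKM. It rose by 0.68 in double mutants relative to *gas-1* mutants (SE 0.14, limma adjusted p = 0.0022, ratio of means 1.597). Compared to wt it rose by 1.63 in *gas-1* mutants (limma adjusted p = 2.8e-07, ratio 3.08) and by 2.30 in double mutants (limma adjusted p = 5.2e-09, ratio 4.93). It was the 1 member higher in all 3 comparisons, and kept each call under every alternative run.

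Other cargo and tethering factors rose relative to wt. The scaffold *epg-2*, which in embryos brings germline P-granule proteins to autophagic membranes (I, 2300086 to 2302813), had 347, 573, 405, 279.9 and 479 FPKM in double mutants, 312, 414, 278, 321 and 375 in *gas-1* mutants and 85.7, 112, 479, 98.9 and 203 in wt. In wt, replicate 3 was higher than every *gas-1* library, while the 4 others lay below all mutant libraries. The rise was 1.11 in *gas-1* mutants relative to wt (SE 0.38, limma adjusted p = 0.017) and 1.37 in double mutants relative to wt (limma adjusted p = 0.0041), and without wt replicate 3 it was 1.51 and 1.78. With the all-gene median of ratios the rise in *gas-1* mutants was 0.87 and did not pass (limma adjusted p = 0.061). In that library the 11 sperm markers summed to 3.81 FPKM, the lowest of wt, and the 8 embryonic markers to 396 FPKM, the highest of wt. Of the latter sum, *pal-1* alone made up 381 FPKM. The part of sperm or embryo content in the *epg-2* level was not tested. The tether *epg-5*, which joins autophagosomes to late endosomes and lysosomes, averaged 15.9 ± 1.25, 13.97 ± 1.16 and 10.8 ± 1.08 FPKM in double mutants, *gas-1* mutants and wt, with a rise of 0.37 in *gas-1* mutants (limma adjusted p = 0.00074) and 0.56 in double mutants (limma adjusted p = 1.4e-05) relative to wt.

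Of the lipid transfer group, *atg-2*, which moves lipids from the endoplasmic reticulum to the growing membrane (X, 6806763 to 6817266), had 11.2, 14.5, 13.6, 10.9 and 13.1 FPKM in double mutants, 9.15, 8.34, 8.56, 8.69 and 8.496 in *gas-1* mutants and 6.67, 5.42, 10.2, 4.38 and 7.69 in wt. The mutants did not overlap, and wt was the most variable, with replicate 3 above all *gas-1* libraries. The rise of 0.53 between the mutants (SE 0.17, limma adjusted p = 0.026) was lost without *gas-1* replicate 2 or double mutant replicate 2, 3 or 5 (fold changes of 0.48 to 0.52, limma adjusted p = 0.051 to 0.062). In double mutants relative to wt it rose by 0.92 (limma adjusted p = 0.00019), and *gas-1* mutants differed from wt by 0.39 (limma adjusted p = 0.056), or by 0.54 without wt replicate 3 (limma adjusted p = 0.0026). The membrane protein *atg-9* and the lipid-binding *epg-6* were called in no comparison, and *atg-18*, the other lipid-binding member, fell by 0.15 in double mutants relative to wt alone.

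The conjugation enzymes went both ways. The E2-like enzyme *atg-3* (IV, 1010512 to 1012502) had 11.1, 11.2, 10.4, 10.8 and 11.5 FPKM in double mutants, 9.72, 10.5, 9.88, 9.49 and 9.60 in *gas-1* mutants and 12.1, 12.2, 13.2, 12.05 and 12.97 in wt. All mutant libraries lay below wt, and the mutants overlapped by 1 library each. It rose by 0.16 in double mutants relative to *gas-1* mutants (SE 0.045, limma adjusted p = 0.014) and fell by 0.34 in *gas-1* mutants (limma adjusted p = 1.5e-05) and by 0.18 in double mutants (limma adjusted p = 0.0022) relative to wt. The call between the mutants was lost with quantile normalization and with the all-gene median of ratios, both at 0.12 (limma adjusted p = 0.13 and 0.24). Lower in every comparison was *atg-5*, which is joined to LGG-3, the Atg12 homolog (log2 fold change -0.13, -0.11 and -0.24), though its call between the mutants (limma adjusted p = 0.038) was lost in fits without *gas-1* replicate 2, 3, 4 or 5 or double mutant replicate 1, 3 or 4.

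The partner of ATG-5 encoded by *atg-16.2* (II, 6450889 to 6453391) rose in both mutants. It had 6.21, 8.08, 6.98, 6.17 and 7.16 FPKM in double mutants, 6.30, 6.57, 6.61, 6.68 and 7.05 in *gas-1* mutants and 4.21, 3.98, 5.82, 3.56 and 4.58 in wt. Mutant and wt libraries did not overlap. The rise was 0.59 in *gas-1* mutants (SE 0.11, limma adjusted p = 0.00028) and 0.64 in double mutants (limma adjusted p = 9.4e-05) relative to wt, but 0.22 and 0.20 after quantile normalization, where neither passed (limma adjusted p = 0.11 and 0.13). The E1-like *atg-7* and the protease *atg-4.2* rose in both mutants relative to wt, by 0.21 and 0.50 in *gas-1* mutants. The paralogs *atg-16.1* and *atg-4.1* moved less, at 0.16 without a call and 0.10 with one. The E2-like *atg-10* averaged 0.158 FPKM in double mutants, 0.161 in *gas-1* mutants and 0.113 in wt and was not tested.

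The Atg8 family proteins, which coat the membrane and are used to mark autophagosomes, come from *lgg-1* and *lgg-2*. The abundant *lgg-1* (II, 6346960 to 6347719), of the GABARAP type, had 495, 588, 554, 493 and 557 FPKM in double mutants, 489.8, 466, 496, 453 and 519.9 in *gas-1* mutants and 385, 332, 439, 287 and 360.5 in wt. The mutants overlapped each other and both lay above wt. It rose by 0.44 in *gas-1* mutants (SE 0.091, limma adjusted p = 0.0007, ratio of means 1.34) and by 0.59 in double mutants (limma adjusted p = 4.1e-05, ratio 1.49) relative to wt, and differed by 0.15 between the mutants (limma adjusted p = 0.24). With the all-gene median of ratios the rise in *gas-1* mutants was 0.20 and no longer passed (limma adjusted p = 0.12). For *lgg-2* (IV, 10934196 to 10935903), of the LC3 type, the values were 31.2, 34.5, 36.3, 32.5 and 34.2 FPKM in double mutants, 32.1, 28.3, 31.5, 27.8 and 29.6 in *gas-1* mutants and 28.8, 22.9, 32.2, 21.4 and 28.3 in wt. The strains overlapped, and only double mutants relative to wt passed the test (log2 fold change 0.35, SE 0.094, limma adjusted p = 0.0038), a call lost with the all-gene median of ratios (0.07, limma adjusted p = 0.58). Between the mutants the fold change was 0.18 (limma adjusted p = 0.17), which passed in the fit of the 10 libraries compared (limma adjusted p = 0.029). In *gas-1* mutants relative to wt the fold change of 0.17 (limma adjusted p = 0.12) became 0.24 without wt replicate 3 (limma adjusted p = 0.019), 0.26 without the 4 libraries low in sperm RNA (limma adjusted p = 0.029) and 0.32 with array weights (limma adjusted p = 0.0017). Per length, *lgg-1* exceeded *lgg-2* by 15.9 ± 0.771 times in double mutants, 16.3 ± 0.880 times in *gas-1* mutants and 13.5 ± 0.634 times in wt.

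**Figure D4:**
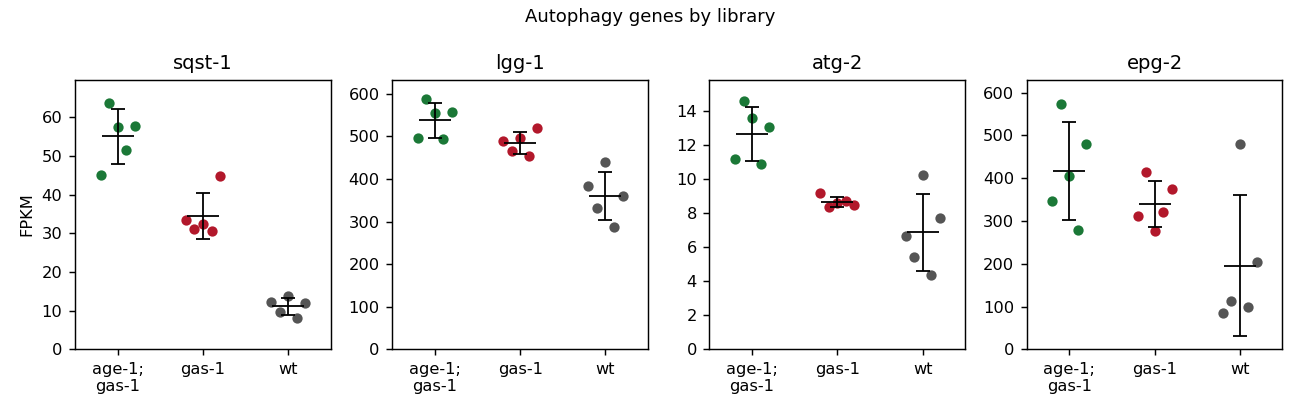
FPKM (y axis, from 0) of 4 autophagy genes in each library of double mutants, *gas-1* mutants and wt, with points for libraries and bars for the mean ± SD of 5. The strains form 3 steps for *sqst-1*, with 8.16 to 13.7 FPKM in wt, and a single wt library at 479 FPKM stands apart for *epg-2*.

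The plot of autophagy genes by library sets these patterns side by side. Next came the genes that start autophagy. Of the 4 in the kinase complex, *unc-51*, the ULK kinase, rose by 0.39 in *gas-1* mutants (limma adjusted p = 0.0028) and by 0.51 in double mutants (limma adjusted p = 0.00028) relative to wt. The scaffold *epg-7* and the regulator *epg-9* rose in double mutants relative to wt by 0.33 and 0.42, and *atg-13* was called nowhere. In the lipid kinase complex the kinase *vps-34* rose by 0.24 in *gas-1* and 0.27 in double mutants relative to wt, whereas its partners *bec-1*, the homolog of Beclin, and *epg-8*, the homolog of Atg14, were not called. Of the membrane proteins of the endoplasmic reticulum, *epg-3*, the homolog of VMP1, fell by 0.37 in *gas-1* and by 0.32 in double mutants relative to wt, with no overlap of libraries, and *epg-4* was not called (log2 fold changes of -0.01 to 0.01).

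Libraries of 1 strain also differed from each other, in a direction shared by most members. All 25 autophagy genes tested had their highest wt value in replicate 3, where 38.3% of all genes did, and lay a median of 17.9% above the wt mean. In wt replicate 4, 22 of them had their lowest value, where 24.9% of all genes did, at a median of 12.7% below the wt mean. In double mutants 16 of them were highest in replicate 2 (30.2% of all genes), at a median of 8.45% above the mean. Of the 21 V-ATPase genes, 8 had their lowest wt value in replicate 3, a share of 38.1% that is close to the 36.8% of all genes, and 14 their highest in wt replicate 2 (17.3% of all genes). In double mutant replicate 5, 15 were lowest (22.8% of all genes), and in *gas-1* replicate 2, 14 were lowest (29.02%). Sperm markers summed to 3.81 FPKM in wt replicate 3 and 89.0 in wt replicate 4, and to 6.02, 7.21 and 8.03 in double mutant replicates 2 and 5 and *gas-1* replicate 2. None of the 6 sperm markers tested passed in any comparison (limma, 0 also at an unadjusted p under 0.05), and *msp-31* was at 0 in every library. These 6 had an SE of 0.20 to 1.09. Their median log2 fold change was -1.08 in *gas-1* mutants and -0.83 in double mutants relative to wt. Outside replicate 3, wt sums were 42.9 to 89.0 FPKM, above the highest mutant sum of 39.1. The tests therefore cannot show equal sperm RNA, and without the 4 libraries mutant sums (19.3 to 39.1) still lay below wt.

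**Figure D5:**
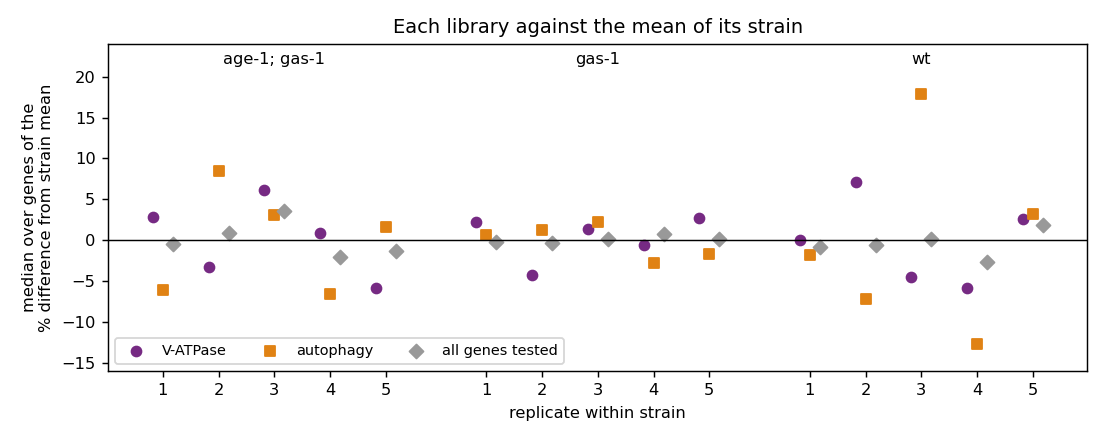
Median over genes of the difference from the strain mean, in % (y axis), for each replicate of double mutants, *gas-1* mutants and wt (x axis), for V-ATPase genes (circles), autophagy genes (squares) and all genes tested (diamonds). In wt replicate 3 the autophagy genes lie 17.9% above the mean of wt, while V-ATPase genes lie below it.

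As the plot of library differences shows, autophagy genes stood farthest from their strain mean in wt replicates 3 and 4, while in each of the other 13 libraries their median lay at most 8.45% from the strain mean. Without wt replicate 3, 14 autophagy genes rose and 2 fell in *gas-1* mutants relative to wt, and 16 rose and 4 fell in double mutants relative to wt. Of all 11648 genes, 5268 rose and 3034 fell, and 5332 rose and 3748 fell, in that fit. Without all 4 libraries low in sperm RNA, 14 autophagy genes rose and 3 fell, and 13 rose and 3 fell. All genes then gave 5353 and 3249, and 5303 and 3593. Between the mutants 2 autophagy genes rose and 1 fell without the 4 libraries (1620 and 2155 of all genes). There *sqst-1* still rose, by 0.55 (limma adjusted p = 0.024), and *atg-2* no longer passed (0.43, limma adjusted p = 0.056). In *gas-1* mutants relative to wt *atg-2* then rose by 0.55 (limma adjusted p = 0.005).

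Further genes of the pathway were followed by list. Of 8 transcription factors and regulators of autophagy, 1 rose and 0 fell between the mutants (limma, 3 and 1 at an unadjusted p under 0.05), namely *hlh-30*, the homolog of TFEB, which activates autophagy and lysosome genes. It averaged 162 ± 9.90 FPKM in double mutants, 129 ± 9.48 in *gas-1* mutants and 84.9 ± 7.92 in wt, with rises of 0.33 in double mutants relative to *gas-1* mutants (limma adjusted p = 0.0025), 0.61 in *gas-1* mutants relative to wt (limma adjusted p = 3.7e-06) and 0.93 in double mutants relative to wt (limma adjusted p = 3.1e-08). Its libraries did not overlap between the 3 strains, and its order of strains was that of *sqst-1*. In each mutant relative to wt 5 of the list rose and 1 fell, with all-gene shares of 44.0% higher and 24.6% lower in *gas-1* mutants, and of 44.5% and 31.2% in double mutants. Next in that list between the mutants were *mxl-3* (0.63, limma adjusted p = 0.060), a repressor of lysosomal lipase genes, and *mxl-2* (-0.14, limma adjusted p = 0.067).

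Of 12 genes of lysosome fusion 0 rose and 2 fell between the mutants (limma, 1 and 3 at an unadjusted p under 0.05), 1 rose and 5 fell in *gas-1* mutants relative to wt, and 1 rose and 7 fell in double mutants relative to wt, where 44.0% and 24.6%, and 44.5% and 31.2%, of all genes rose and fell. The small GTPase *rab-7*, which marks late endosomes and lysosomes, averaged 596 ± 14.04 FPKM in double mutants, 711 ± 31.4 in *gas-1* mutants and 667 ± 42.8 in wt and fell by 0.25 (limma adjusted p = 0.00061), and *ccz-1*, a subunit of its activator, fell by 0.13 (limma adjusted p = 0.018). For *sand-1*, the other subunit, the fold change was 0.13 (limma adjusted p = 0.068). Of 10 genes of the lysosomal membrane and related organelles 2 rose and 0 fell between the mutants (limma, 3 and 1 at an unadjusted p under 0.05). These were *scav-3*, which keeps the lysosomal membrane intact, by 0.35 (limma adjusted p = 0.00051) and *glo-1*, a Rab GTPase of gut granules, by 0.36 (limma adjusted p = 0.012), while *ctns-1*, the cystine transporter, was at 0.12 (limma adjusted p = 0.051).

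Of 12 genes of TORC1 and nutrient sensing, through which the lysosome represses autophagy, 1 rose and 2 fell between the mutants, and 1 rose and 5 fell in *gas-1* mutants relative to wt (44.0% and 24.6% of all genes). In double mutants relative to wt 1 rose and 7 fell (44.5% and 31.2% of all genes). Between the mutants, the AMPK catalytic subunit *aak-2* rose by 0.21 (limma adjusted p = 0.034), and *lmtr-3* and *raga-1*, which hold TORC1 at the lysosome, fell by 0.28 (limma adjusted p = 0.0027) and 0.12 (limma adjusted p = 0.037). Of 8 other genes of the autophagy machinery 1 rose and 3 fell, among them the P-granule protein *pgl-3* (-0.27, limma adjusted p = 0.00059), the secretory GTPase *rab-1* (-0.19, limma adjusted p = 0.00083) and the lipid phosphatase *mtm-3* (0.20, limma adjusted p = 0.025). Of the 2 assembly genes matched, *rbc-1*, a rabconnectin, rose by 0.23 (limma adjusted p = 0.034), opposite to the subunits, and *rbc-2* was not called (0.07, limma adjusted p = 0.43). All these shares are to be read against 13.5% of genes higher and 19.5% lower between the mutants. Of the 8 other machinery genes, 2 rose and 2 fell in *gas-1* mutants relative to wt (44.0% and 24.6% of all genes). In double mutants relative to wt 2 of them rose and 5 fell (44.5% and 31.2% of all genes).

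The exons of 13 members overlap those of another gene in WBcel235, and whether strand was used in counting is not given in the sources used here. Among the members described, *epg-2* shares up to 78 bp with *tpxl-1*, *vha-17* 37 bp with *nspg-11*, *vha-18* 57 bp with F52E1.2, *vha-5* 57 bp with F35H10.10 and *unc-32* 38 bp with a non-coding RNA, all on the opposite strand, and *vha-2* 219 bp with R10E11.6 on the same strand. Of the overlapping genes measured, F35H10.10 had the same order of strain means as its member *vha-5* (41.4 FPKM in double mutants, 39.5 in *gas-1* mutants and 28.0 in wt). The same held for D2007.1 (5.73, 3.28 and 2.21 FPKM), which shares up to 134 bp with *atg-13*. It also held for Y106G6A.4 (1.84, 1.29 and 5.63 FPKM), which shares 13 bp with *epg-8*. By contrast, *nspg-11* (13.9, 8.51 and 4.55 FPKM) and *tpxl-1* (14.2, 17.5 and 19.1 FPKM) had another order than *vha-17* and *epg-2*. The part of overlapping reads in any result was not tested.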

How the data were processed

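Messenger RNA of whole animals was sequenced with a stranded TruSeq kit from about 100 ng of RNA as single 50 bp reads. The authors deposited 1 table of FPKM per library. Tools in the submitters' processing notes are STAR 2.4.0h, Cufflinks 2.1.1, Cuffdiff, CASAVA 1.8.2 and FastQC 0.10.1, with no roles. Not given in the sources used here: build, annotation and whether counting used strand. FPKM are scaled to length and depth, so a rise of a few abundant genes lowers all others, and the 10 most abundant genes took 9.56% to 18.5% of the total. Read depth cannot be had from FPKM. Relative depth was estimated from the steps between low values, where at most 9.39% of ratios fell in the modal bin, too few for whole reads to be recovered.

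A gene was kept when 5 or more of the 15 libraries had 1 FPKM or more, which left 11648 of 20483. After log2(FPKM + 0.1), limma 3.58.1 (R 4.3.3, mean-variance trend) was run in one fit of the 3 strains with strain as the factor. The Benjamini-Hochberg adjustment was made over all genes kept within each comparison, at 5% FDR, as the study states an FDR but no test per gene. Changes of low genes are understated on this scale. The spread is that between the libraries labelled as replicates. The fit was also run on simulated data with known changes, whose outcome is not reported here.

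Members and the lists of neighbouring genes and markers were chosen with earlier results of these data known. Values per library are given for the 3 members with the largest called change per set and comparison, the a subunit and Atg8 genes and *sqst-1*, and, in other lists, values for up to 3 genes with the smallest adjusted p between the mutants. Coordinates were read from WBcel235 by WormBase identifier. Of the lists, *rubc-1*, *plekhm-1* and *vma-21* were not matched and not used here. Sequences were not used here. Alternatives covered the pseudocount, the filter, scaling, limma options, a fit of the 10 libraries compared, a replicate block and leaving out each library. A fit without 4 libraries and a scaling over all genes were added after the data were seen.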

Additional observations from a re-analysis of the deposited data

Results flagged for a closer look

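In 138 sets of 5 libraries (46 members in 3 strains), 7 had 1 library set apart from the 4 others by more than 0.71 of the whole range, and chance gives this in about 1 in 20 sets. For *sqst-1*, *gas-1* replicate 5 held 44.7 FPKM, above the 30.7 to 33.4 FPKM of the other *gas-1* libraries. For *epg-6*, wt replicate 3 held 77.3 FPKM, above 58.0 to 61.7, and for *epg-3*, *gas-1* replicate 2 held 22.9 FPKM, below 25.3 to 26.2. For *vha-1*, *gas-1* replicate 5 held 105.9 FPKM, above 99.4 to 101.0. The level of *vha-17* in double mutant replicate 3 was 37.3 FPKM, above 33.3 to 34.2. For *vha-9*, wt replicate 2 held 105.0 FPKM, above 93.9 to 97.0, and for *vha-19*, wt replicate 4 held 38.9 FPKM, below 43.4 to 45.1.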

How the results depend on the processing

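Of the values for single members named under alternatives, 1282 kept their call or lack of one, 26 gained a call and 30 lost one. A further 6 changed sign with a call before or after. Sign changes of values called in neither fit are among the 1282. After median-of-ratios scaling 4 V-ATPase genes were lower in double mutants relative to wt, and 6 autophagy genes were lower in *gas-1* mutants relative to wt. With this scaling, with upper-quartile scaling and in the fit of the 10 libraries compared, 0 autophagy genes were lower between the mutants, and with array weights 2 were. Upper-quartile scaling and quantile normalization each gave 5 autophagy genes lower in *gas-1* mutants relative to wt. Quantile normalization gave 5 higher in that comparison, and 10 V-ATPase genes higher in double mutants relative to wt. Without the 4 libraries low in sperm RNA that last count was 12. With the median of ratios over all genes above 0 (added after seeing the data), 5 V-ATPase genes were higher in *gas-1* mutants relative to wt, and 2 were higher and 15 lower in double mutants relative to wt. Under it 1 autophagy gene was higher and 0 lower between the mutants, 2 were higher and 8 lower in *gas-1* mutants relative to wt, and 6 higher and 10 lower in double mutants relative to wt. The same scaling turned *unc-32* to -0.12 in *gas-1* and -0.18 in double mutants relative to wt, and *vha-10*, *vha-12* and *vha-17* to -0.17, -0.20 and -0.20 in double mutants relative to wt, and *unc-32* reached -0.0068 in *gas-1* mutants with the median-of-ratios scaling of kept genes. Scaling by itself shifts every gene of a library alike (other than quantile normalization), and which scaling is right was not tested. Counts of all genes under these scalings are given with the V-ATPase genes above.

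Leaving out 1 library, lower V-ATPase genes between the mutants numbered 10 to 14. Against wt, 16 to 18 V-ATPase genes were higher in *gas-1* mutants, and 4 to 9 in double mutants, with 2 lower in each. For autophagy 2 to 4 were higher and 0 to 1 lower between the mutants, 9 to 14 higher and 2 to 3 lower in *gas-1* mutants relative to wt, and 11 to 16 higher and 4 lower in double mutants relative to wt.

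The labels give no pairing by replicate number. Same-numbered deviations of the mutants correlated at 0.35, 0.79, 0.29 and 0.61 in replicates 1 to 4 and -0.12 in replicate 5. Those of *gas-1* mutants and wt correlated at -0.71 to 0.59, and those of double mutants and wt at -0.76 to 0.70. The samples were therefore not taken as paired. With a replicate block 12 V-ATPase genes were lower and 0 higher between the mutants, 17 higher and 2 lower in *gas-1* mutants relative to wt, and 6 and 2 in double mutants relative to wt. Autophagy counts with the block were 3 and 1, 11 and 3, and 13 and 4.

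The median SE of 0.094 on the log2 scale over all genes tested limits what 5 libraries a strain can show, and depth is unknown.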
